A study of Mus musculus with 30 samples.

Results

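The genes described here are 38 genes of the cell division cycle, measured in the livers of young adult mice whose mothers drank a bisphenol S compound or estradiol. They were taken from the deposited tables by gene symbol, from a list written for this purpose, and all 38 were found among the 17990 genes of the tables. By the stage in which their products act, 4 belong to G1 and the entry into S phase, 12 to DNA replication and nucleotide supply, and 22 to G2 and mitosis.

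The dams were ICR mice, an outbred stock, and RNA was sequenced from whole livers of their offspring at 10 weeks of age. The offspring fell into 10 groups of 3 livers, and each sex had a 2,4-BPS, a BPSIP, a BPS, an E2 and a control group. Bisphenol S (BPS) is a sulfone with 2 phenol rings, 2,4-BPS is its positional isomer, in which a hydroxyl group sits elsewhere on its ring, BPSIP is BPS with an isopropyl ether in place of a hydroxyl group, and E2 is estradiol, the main endogenous estrogen. Per the labels, 8 dams per group took a compound in drinking water at 10 ng/mL with 0.001% ethanol, aiming at a daily dose of 5 µg per kg, from the start of pregnancy until the pups were weaned, about 40 days, and control dams drank the same ethanol. Per the labels, each library came from 1 liver, and livers of a group came from litters of different dams, which the labels do not number.

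A cell that leaves quiescence makes D-type cyclins, whose kinases inactivate the retinoblastoma proteins and free the E2F factors. E2F targets then supply cyclin E, nucleotides and the MCM helicase that opens the DNA for replication. Later, B-MYB and FOXM1 switch on the genes of mitosis: cyclins A and B, CDK1, the aurora and polo kinases, the spindle motors and the machinery of chromosome segregation. Most hepatocytes of an adult liver are quiescent and divide seldom, so that transcripts of mitosis are rare in whole liver and may come from hepatocytes or from other dividing cells. In bulk tissue, fewer dividing cells and less RNA per dividing cell cannot be told apart.

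Libraries held 29711711 to 37719069 counts, and levels are given as CPM, the usual depth-scaled counts, with TMM scaling. A gene is called where edgeR's quasi-likelihood test gave a p, adjusted by Benjamini and Hochberg over all genes of the fit, below 0.05. "Rose" and "fell" are used only of called genes, and log2 fold changes carry ± the standard error of the fit. Transcripts of 12 hepatocyte genes summed to at least 95632 CPM in every library, with none of the 12 at 0 in any group. The libraries labelled male control are described but not tested: their 4 Y-linked genes summed to 84.7 to 95.3 CPM, against at least 131 CPM in every exposed male library and at most 0.543 CPM in every female library. In them A1bg, which female livers express, stood at 1368 to 1622 CPM, where no exposed male library passed 4.57 CPM and control females had 2499 to 2578 CPM. Exposed males are therefore set against each other. In the GENCODE M21 annotation, exons of 14 of the 38 members overlap those of another gene, 12 of them on the opposite strand, and the sources used here do not say whether counting used the strand, so the counts of these 14 are uncertain.

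Promoter sequences of some members are shown first, with counts of short motifs around the start sites of the genes of mitosis and of S phase. Whether these motifs bear on the levels given below was not tested. The windows come from RefSeq (GRCm38.p6) and run from 250 bases before to 50 bases after the start site, and 31 of the 38 members matched one. Of the 18 windows of G2 and mitosis genes, 16 (88.9%) held a CCAAT box (CCAAT on either strand) and 15 (83.3%) held a CHR element (TTTGAA on either strand, or likewise TTCGAA), and 15 held both. Of the 11 windows of S phase genes, 8 (72.7%) held a CCAAT box, 2 (18.2%) a CHR element and 7 (63.6%) an E2F site, searched on either strand in 4 spellings. The spellings were TTCCCGC as the main one, TTGGCGC as the next, TTCGCGC as the next and TTGCCGC as the last. An E2F site stood in 4 (22.2%) of the 18 windows of G2 and mitosis genes. Over all 32851 windows in the table, 37.4% held a CCAAT box, 19.2% a CHR element, 9.6% an E2F site and 13.6% a TATA box (TATAAA on either strand), and the TATA box was found in 0 of the 31 member windows. In 2 members an E2F site overlapped a CCAAT box. These are matches of letters, not sites shown to be bound.

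Of these windows, the 200 bases before the start site are printed for 4 genes of mitosis and 2 of the MCM helicase, 5′ to 3′ on the strand of the gene. Capitals mark CCAAT boxes, CHR elements and E2F sites, read on either strand. The positions are chr7:135716380-135716579 (minus strand) for Mki67, chr11:99024190-99024389 (minus) for Top2a, chr13:100786487-100786686 (minus) for Ccnb1, chr4:118437344-118437543 (minus) for Cdc20, chr8:75109309-75109508 (plus) for Mcm5 and chr1:128359706-128359905 (minus) for Mcm6.
Mki67: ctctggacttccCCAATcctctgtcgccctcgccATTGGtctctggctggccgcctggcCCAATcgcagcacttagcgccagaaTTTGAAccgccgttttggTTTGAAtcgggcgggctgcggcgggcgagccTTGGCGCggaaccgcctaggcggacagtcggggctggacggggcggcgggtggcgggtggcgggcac
Top2a: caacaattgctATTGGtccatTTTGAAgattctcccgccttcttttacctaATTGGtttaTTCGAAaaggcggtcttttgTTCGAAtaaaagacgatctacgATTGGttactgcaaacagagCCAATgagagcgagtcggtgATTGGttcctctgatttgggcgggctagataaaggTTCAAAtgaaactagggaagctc
Ccnb1: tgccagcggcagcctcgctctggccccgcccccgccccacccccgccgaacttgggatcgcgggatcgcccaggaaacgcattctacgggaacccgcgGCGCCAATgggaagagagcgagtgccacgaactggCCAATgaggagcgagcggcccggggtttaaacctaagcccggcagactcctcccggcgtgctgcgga
Cdc20: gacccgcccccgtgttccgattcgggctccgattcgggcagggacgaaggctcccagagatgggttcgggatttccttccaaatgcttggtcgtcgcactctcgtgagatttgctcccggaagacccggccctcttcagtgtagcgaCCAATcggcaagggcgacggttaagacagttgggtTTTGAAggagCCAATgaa
Mcm5: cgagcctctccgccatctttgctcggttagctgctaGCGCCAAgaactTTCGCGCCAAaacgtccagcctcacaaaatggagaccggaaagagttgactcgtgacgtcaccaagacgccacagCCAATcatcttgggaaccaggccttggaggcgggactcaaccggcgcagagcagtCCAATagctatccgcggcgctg
Mcm6: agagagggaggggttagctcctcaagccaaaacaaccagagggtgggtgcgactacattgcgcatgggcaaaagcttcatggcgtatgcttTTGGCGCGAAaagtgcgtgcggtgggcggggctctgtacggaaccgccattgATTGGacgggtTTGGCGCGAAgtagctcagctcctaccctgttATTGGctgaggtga
CCAAT boxes stand in all 6 printed stretches, CHR elements in those of Mki67, Top2a and Cdc20, and E2F letters in those of Mcm5, Mcm6, Mki67 and Ccnb1, in Ccnb1 overlapping a CCAAT box. The same 6 genes carry much of what follows.

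In the livers of female offspring, the called members went in different directions under the exposures. Under E2, 13 of the 38 members were called against control females, each of them lower, where 10.6% of the 13874 tested genes fell and 21% were called either way. Under 2,4-BPS, 9 members were called, each of them higher, where 10.9% of all genes rose, 8.42% fell and 19.3% were called either way. Under BPSIP, 12 members rose and 2 fell, where 19.4% of all genes rose, 19.2% fell and 38.6% were called. Under BPS, 1 member rose and 1 fell, where 9.32% of all genes rose, 7.5% fell and 16.8% were called.

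As shares of the 38, 34.2% of the members fell under E2, 23.7% rose under 2,4-BPS, 31.6% rose and 5.26% fell under BPSIP, and 2.63% rose and 2.63% fell under BPS. Either way, the shares called were 34.2% under E2, 23.7% under 2,4-BPS, 36.8% under BPSIP and 5.26% under BPS. Of all genes, 21%, 19.3%, 38.6% and 16.8% were called, in the same order. The members thus lie above this background under E2, near it under 2,4-BPS and BPSIP, and below it under BPS. The median log2 fold change of the 38 members was -0.694 under E2, 0.413 under 2,4-BPS, 0.362 under BPSIP and -0.0229 under BPS, and that of all genes lay between -0.0138 and 0.00338. All 4 comparisons share the 3 control libraries, so their values are given side by side and not set against each other as independent results. Without replicate 1 of the 2,4-BPS females, 5 members were called under 2,4-BPS. For BPS, 1 member was called when any of control replicates 1, 2 and 3 or BPS replicate 3 was left out.

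**Figure D1:**
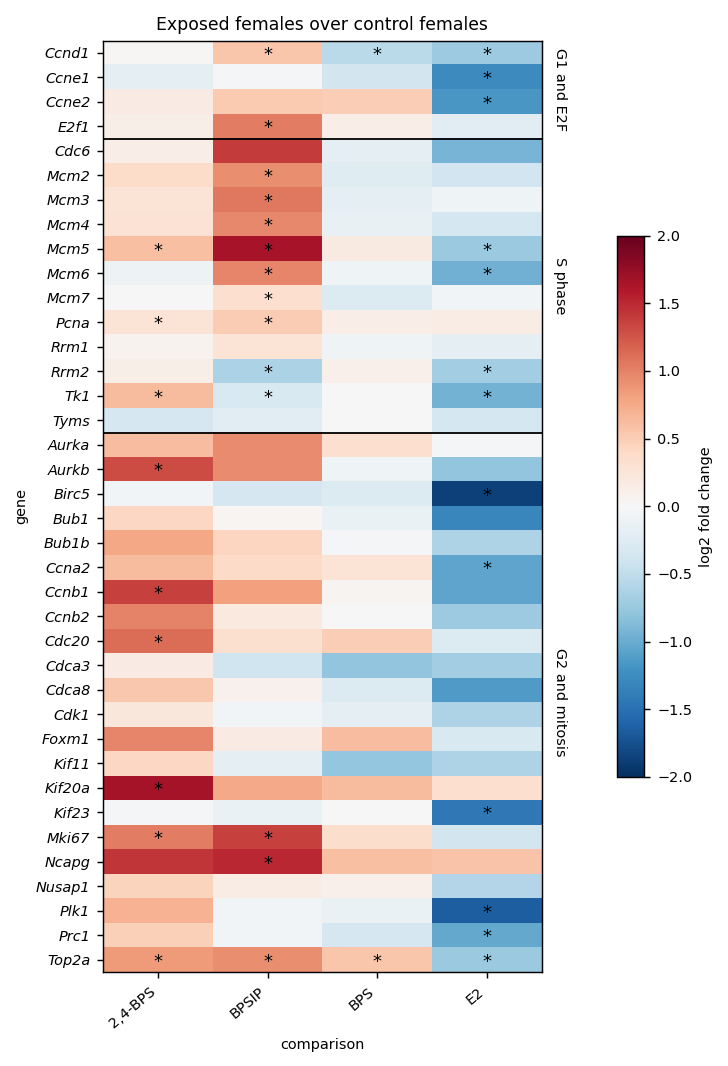
Log2 fold change of each of the 38 members in exposed females over control females, 3 libraries a group, with members in rows by stage and exposures in columns. Asterisks mark adjusted p below 0.05, and colours stop at 2 in either direction. The E2 column is mostly blue, with 13 members called lower, and the BPSIP column is reddest in S phase.

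Among the genes of G1 entry, Ccnd1, the cyclin D1 that couples growth signals to the first cell cycle kinases, was the most abundant member in control females, at 37.1 FPKM. In CPM it had 133, 139 and 132 in 2,4-BPS females, 196, 198 and 197 in BPSIP females, 87.2, 99.6 and 86.1 in BPS females and 75.4, 75.9 and 89.8 in E2 females, against 135, 130 and 135 in control females. The BPSIP libraries all lie above, and the BPS and E2 libraries all below, every control library, while the 2,4-BPS libraries lie among the controls.

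Ccnd1 rose under BPSIP (0.56 ± 0.06, adjusted p = 1.62e-09) and fell under BPS (-0.54 ± 0.06, adjusted p = 2.32e-08) and E2 (-0.73 ± 0.06, adjusted p = 1.09e-11). Under 2,4-BPS its difference was 0.02, with a 95% interval of -0.10 to 0.14. It was the called member of BPS that held in every alternative setting and with each library left out in turn. Exons of Ccnd1 and of LTO1 overlap on opposite strands, and LTO1 averaged 12.8 to 15.3 CPM over the female groups.

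Both E-type cyclins, which drive the step from G1 into S phase, were lowest under E2. Ccne2 had 1.81, 1.86 and 1.76 CPM in 2,4-BPS females, 1.81, 2.41 and 2.8 in BPSIP females, 1.78, 2.45 and 2.55 in BPS females and 0.623, 1.08 and 0.485 in E2 females, against 1.78, 1.52 and 1.56 CPM in control females. The 3 E2 libraries lie below all others. Ccne2 fell 2.23-fold under E2 (-1.16 ± 0.31, adjusted p = 0.00602) and Ccne1 fell 2.43-fold (-1.28 ± 0.35, adjusted p = 0.00685). The call of Ccne2 was lost without E2 replicate 3 (adjusted p = 0.0527) and that of Ccne1 without control replicate 2 (adjusted p = 0.0846). Under 2,4-BPS, BPSIP and BPS neither was called, and the differences ran from -0.36 to 0.52.

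E2f1, the founding E2F factor, averaged 2.49 ± 0.725 CPM in BPSIP females and 1.22 ± 0.177 CPM in control females (SD, n = 3 each). It rose under BPSIP (1.03 ± 0.31, adjusted p = 0.00686), a call that was lost without BPSIP replicate 1 (adjusted p = 0.0501). Its differences under 2,4-BPS, BPS and E2 were 0.12, 0.14 and -0.21, none of them called.

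The replication genes rose under BPSIP as a block of helicase subunits. The MCM proteins form a ring of 6 different subunits, and all 6 of their genes, Mcm2 to Mcm7, were called higher. Mcm5 had 4.29, 3.97 and 4.74 CPM in 2,4-BPS females, 9.5, 8.06 and 9.55 in BPSIP females, 3.38, 2.9 and 3.4 in BPS females and 1.57, 2.44 and 1.16 in E2 females, against 2.68, 2.48 and 3.46 CPM in control females. The BPSIP values are more than 2-fold above any control library, and the E2 values are below all controls.

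Mcm5 rose 3.14-fold under BPSIP (1.65 ± 0.20, adjusted p = 1.47e-08), and Mcm3 (1.05 ± 0.14), Mcm6 (0.98 ± 0.20), Mcm4 (0.96 ± 0.18) and Mcm2 (0.93 ± 0.18) rose with adjusted p between 9.55e-08 and 0.000284. Mcm7 rose less (0.33 ± 0.11, adjusted p = 0.019), a call that was lost without BPSIP replicate 2 (0.0626) or control replicate 3 (0.103). Mcm6 had 5.67, 4.96 and 5.28 CPM in 2,4-BPS females, 11.4, 10.7 and 11.9 in BPSIP females, 6.32, 4.2 and 5.43 in BPS females and 4.01, 1.59 and 3.21 in E2 females, against 6.7, 6.07 and 4.4 CPM in control females. Here the 2,4-BPS and BPS libraries overlap the controls, with differences of -0.10 (95% interval -0.51 to 0.31) and -0.09 (-0.51 to 0.32).

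Under E2, Mcm6 fell (-0.96 ± 0.22, adjusted p = 0.00166) and Mcm5 fell (-0.75 ± 0.22, adjusted p = 0.0111), the second call being lost without control replicate 3 (0.0916) or E2 replicate 3 (0.113). Under 2,4-BPS, Mcm5 rose 1.51-fold (0.60 ± 0.20, adjusted p = 0.0331), a call lost without control replicate 1 (0.107) or 2 (0.146), without 2,4-BPS replicate 1 (0.0658) or 3 (0.11), and in the fit of all 30 libraries (0.081).

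Pcna, the sliding clamp of DNA polymerase, averaged 22.8 ± 0.681 CPM in 2,4-BPS females, 26.8 ± 2.18 in BPSIP females, 20.6 ± 1.44 in BPS females and 21 ± 2.65 in E2 females, against 18.9 ± 1.59 CPM in control females (SD, n = 3 each). It rose under BPSIP (0.51 ± 0.09, adjusted p = 3.18e-05) and under 2,4-BPS (0.28 ± 0.09, adjusted p = 0.0336), and the second of these calls was lost without 2,4-BPS replicate 1 (0.078) or 2 (0.119) or control replicate 1 (0.135) or 3 (0.13). Under E2 its difference was 0.15 (95% interval -0.04 to 0.33).

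Rrm2, the small subunit of ribonucleotide reductase, had 3.02, 2.38 and 2.58 CPM in BPSIP females and 2.71, 2.55 and 2.42 in E2 females, against 4.54, 4.4 and 3.41 CPM in control females. Both exposed groups lie below every control library: Rrm2 fell under BPSIP (-0.63 ± 0.19, adjusted p = 0.00953) and under E2 (-0.69 ± 0.20, adjusted p = 0.00985). The E2 call was lost without control replicate 1 (0.0536). Rrm1, the large subunit, and Tyms, thymidylate synthase, were called under no exposure, with group means of 10 to 13.8 CPM and 6.1 to 7.77 CPM.

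Tk1, thymidine kinase, had 41.1, 43.5 and 45.5 CPM in 2,4-BPS females, 23.7, 21.8 and 22.9 in BPSIP females, 26.9, 27.7 and 29.7 in BPS females and 15, 15.3 and 13.4 in E2 females, against 30.3, 27.3 and 26.9 CPM in control females. It rose under 2,4-BPS (0.63 ± 0.08, adjusted p = 8.12e-08) and fell under BPSIP (-0.31 ± 0.08, adjusted p = 0.00194) and E2 (-0.95 ± 0.08, adjusted p = 1.37e-11). Its exons overlap those of Afmid, a kynurenine pathway enzyme made in liver, on the opposite strand. Afmid averaged 211 CPM in 2,4-BPS females, 159 in BPSIP females, 178 in BPS females and 126 in E2 females, against 154 CPM in control females. It rose under 2,4-BPS (0.46 ± 0.05) and under BPS (0.21 ± 0.05, adjusted p = 0.00222), fell under E2 (-0.30 ± 0.05) and was not called under BPSIP (0.04, -0.05 to 0.14). Tk1 itself was not called under BPS (0.01, -0.15 to 0.16), and the part of Afmid in the values of Tk1 was not tested.

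Of the genes of mitosis, Mki67 and Top2a had the highest counts. Mki67 encodes Ki-67, the coat of mitotic chromosomes that pathologists stain to score dividing cells. It had 9.86, 7.98 and 7.74 CPM in 2,4-BPS females, 11.4, 10.1 and 11 in BPSIP females, 4.92, 6.16 and 5 in BPS females and 4.11, 2.73 and 2.96 in E2 females, against 4.62, 3.76 and 4.28 CPM in control females. All 6 libraries of 2,4-BPS and BPSIP lie above every control library, and the E2 libraries overlap the controls. Mki67 rose 2.03-fold under 2,4-BPS (1.02 ± 0.16, adjusted p = 7.21e-06) and 2.56-fold under BPSIP (1.36 ± 0.16, adjusted p = 8.04e-09). It was not called under BPS (0.35, 95% interval 0.03 to 0.68) or E2 (-0.37, -0.70 to -0.04).

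Top2a, the topoisomerase that untangles sister chromatids, is the member called under all 4 exposures. It had 6.29, 4.85 and 6.25 CPM in 2,4-BPS females, 5.27, 7.61 and 5.59 in BPSIP females, 5.57, 3.93 and 4.69 in BPS females and 1.95, 2.19 and 1.67 in E2 females, against 3.16, 3.01 and 3.53 CPM in control females. No E2 library reaches a control library, and no library of the other exposures falls to one. Top2a rose 1.8-fold under 2,4-BPS (0.85 ± 0.19, adjusted p = 0.000939) and 1.9-fold under BPSIP (0.93 ± 0.19, adjusted p = 0.000125), and fell 1.68-fold under E2 (-0.75 ± 0.20, adjusted p = 0.0062). Its rise under BPS (0.56 ± 0.19, adjusted p = 0.0383) was lost without any of control replicates 1 (0.103), 2 (0.127) and 3 (0.053) or BPS replicates 1 (0.192) and 3 (0.0802), and in the fit of all 30 libraries (0.128).

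**Figure D2:**
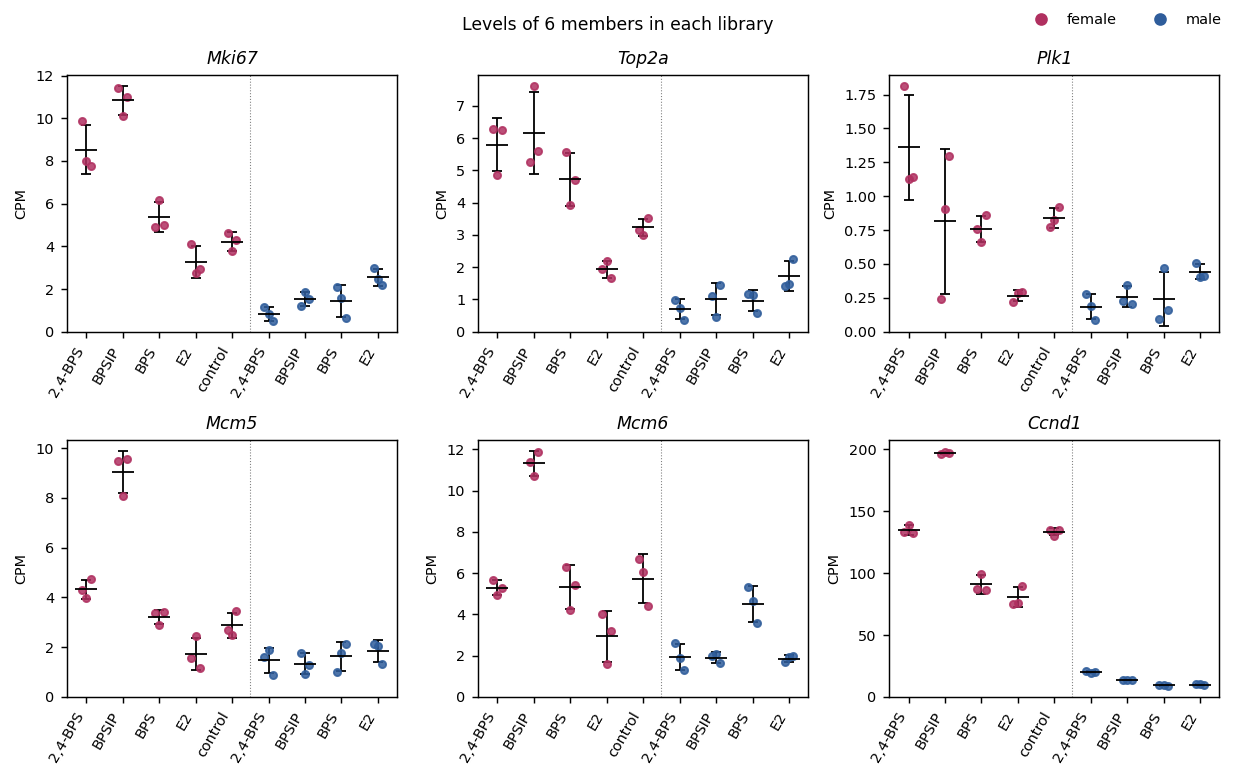
CPM of Mki67, Top2a, Plk1, Mcm5, Mcm6 and Ccnd1 in each library of the 5 female groups and 4 exposed male groups, as points, with the mean and SD of 3 libraries as bars. BPSIP females are highest for Mcm5, Mcm6 and Ccnd1, E2 females are lowest of the female groups in every panel, and Ccnd1 shows the widest gap between the sexes.

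Under 2,4-BPS the called genes of mitosis went beyond these. Kif20a, a kinesin of the central spindle, had 2.29, 3.05 and 3.66 CPM in 2,4-BPS females, against 1.12, 0.693 and 1.05 CPM in control females. It rose 3.15-fold (1.66 ± 0.34, adjusted p = 0.000326), and this call, like those of Mki67, Top2a and Tk1, held with each library left out and in every other setting. Ccnb1, the B cyclin that activates CDK1, had 2.18, 1.48 and 1.92 CPM in 2,4-BPS females, against 0.638, 0.986 and 0.563 CPM in control females. Cdc20, which turns the anaphase-promoting complex on, had 2.1, 2 and 2.08 CPM in 2,4-BPS females, against 0.983, 0.852 and 1.02 CPM in control females. For both genes the groups do not overlap.

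Ccnb1 rose 2.56-fold (1.36 ± 0.43, adjusted p = 0.021), Cdc20 rose 2.17-fold (1.12 ± 0.33, adjusted p = 0.0129) and Aurkb, the kinase of the chromosomal passenger complex, rose 2.46-fold (1.30 ± 0.44, adjusted p = 0.0317). At these low counts the calls hang on single libraries. That of Ccnb1 was lost without 2,4-BPS replicate 1 (0.083) or 3 (0.051) or control replicate 1 (0.0767) or 3 (0.0918). That of Cdc20 was lost without control replicate 2 (0.0598), and that of Aurkb without 2,4-BPS replicate 1 (0.0992) or 3 (0.0664), without control replicate 2 (0.176) or 3 (0.0662), and in the fit of all 30 libraries (0.108). Cdk1, the mitotic kinase itself, was called under none of the 4 exposures, with differences of 0.23 under 2,4-BPS (95% interval -0.31 to 0.76), -0.06 under BPSIP (-0.59 to 0.48), -0.19 under BPS (-0.73 to 0.36) and -0.62 under E2 (-1.17 to -0.06).

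Under BPSIP 3 of the 22 genes of G2 and mitosis were called, Mki67, Top2a and Ncapg, beside 9 of the 12 genes of S phase. Ncapg, a subunit of the condensin that compacts chromosomes, averaged 0.705 ± 0.224 CPM in BPSIP females and 0.245 ± 0.124 CPM in control females (SD, n = 3 each). Its call (1.51 ± 0.58, adjusted p = 0.0348) was lost without BPSIP replicate 1 (0.139) or 2 (0.082) or control replicate 1 (0.171) or 3 (0.068).

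Under E2 the genes of mitosis that fell were Kif23, Birc5, Top2a, Ccna2, Plk1 and Prc1. Birc5, the survivin subunit of the chromosomal passenger complex, had 0.406, 0.17 and 0.62 CPM in E2 females, against 0.957, 1.89 and 1.56 CPM in control females. Kif23, a kinesin that cytokinesis needs, had 0.514, 1.08 and 0.7 CPM in E2 females, against 2.39, 2.24 and 1.54 CPM in control females. Plk1, the polo kinase, had 0.217, 0.284 and 0.296 CPM in E2 females, against 0.771, 0.826 and 0.922 CPM in control females. In each of the 3 genes all E2 libraries lie below all control libraries.

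Birc5 fell 3.66-fold (-1.87 ± 0.44, adjusted p = 0.00153) and Kif23 fell 2.7-fold (-1.43 ± 0.32, adjusted p = 0.000771), and both calls held without any single library. Plk1 fell 3.14-fold (-1.65 ± 0.52, adjusted p = 0.0182), lost without control replicate 3 (0.052) or E2 replicate 1 (0.0583). Ccna2, cyclin A2, fell 2.07-fold (-1.05 ± 0.30, adjusted p = 0.00997), lost without control replicate 3 (0.0588) or E2 replicate 3 (0.0746), in the fit of all 30 libraries (0.0696) and in that of the 2 groups alone (0.0565). Prc1, which bundles the midzone microtubules, fell 2.05-fold (-1.03 ± 0.33, adjusted p = 0.0215), lost without control replicate 1 (0.0509) or 3 (0.098), without E2 replicate 2 (0.101) or 3 (0.0711), in the fit of all 30 libraries (0.0558) and in that of the 2 groups (0.0574).

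By group mean, E2 females were the lowest of the 5 female groups for 18 of the 22 genes of G2 and mitosis and 8 of the 12 genes of S phase. 2,4-BPS females were the highest for 16 of the 22, and BPSIP females for 9 of the 12. How often all genes took these ranks was not counted. Summed over the 22 genes, the libraries had 53.5, 46.7 and 48.1 CPM in 2,4-BPS females, 42.3, 43 and 43.3 in BPSIP females, 33.6, 29.7 and 32.6 in BPS females and 19.4, 18.8 and 18.3 in E2 females, against 31.5, 28.2 and 31.3 CPM in control females. BPS overlaps control, and the other groups stand clear of both and of each other.

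The bisphenols were compared at the same dose and age in 6 pairs per sex, E2 included, with p adjusted over genes within each pair and not over pairs. Against BPS, its isomer 2,4-BPS called 10 members in females, each of them higher, where 10.2% of all genes rose and 19.5% were called. Ccnd1 (0.56 ± 0.06, adjusted p = 9.7e-09), Tk1 (0.62 ± 0.08, adjusted p = 1.44e-07), Mki67 (0.67 ± 0.16, adjusted p = 0.00211) and Kif11, the spindle kinesin Eg5 (1.17 ± 0.29, adjusted p = 0.00325), kept their calls without any single library. The other 6 calls, Mcm2, Mcm3, Aurkb, Kif20a, Cdca3 and Ccnb1, were each lost when some library was left out, and without BPS replicate 2 the count was 4. Top2a differed by 0.29 between the isomers, with a 95% interval of -0.07 to 0.65, and Mcm6 by -0.01, with an interval of -0.42 to 0.41.

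Against BPS, its isopropyl ether BPSIP called 11 members higher and 2 lower in females, where 19.2% of all genes rose, 20.1% fell and 39.3% were called. The share of members called, 34.2%, is below that of all genes. Ccnd1 was 2.15-fold higher (1.10 ± 0.06, adjusted p = 6.28e-17), and Mcm5 (1.47 ± 0.20), Mcm3 (1.24 ± 0.14), Mcm2 (1.17 ± 0.18), Mcm4 (1.11 ± 0.18), Mcm6 (1.07 ± 0.21) and Mcm7 (0.61 ± 0.12) were higher with adjusted p of 0.00011 or less. Tk1 (-0.32 ± 0.08, adjusted p = 0.00159) and Rrm2 (-0.73 ± 0.20, adjusted p = 0.00298) were lower. Top2a differed by 0.37 (0.01 to 0.73, adjusted p = 0.113).

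Between 2,4-BPS and BPSIP in females, 3 members were called higher and 9 lower, where 18.3% of all genes rose, 17.3% fell and 35.5% were called. Here too the share of members called, 31.6%, is below that of all genes. All 6 MCM genes, Ccnd1, E2f1 and Pcna were lower under 2,4-BPS, and Tk1, Rrm2 and Kif20a higher. Mcm6 (-1.08 ± 0.20, adjusted p = 0.000106), Mcm5 (-1.05 ± 0.19, adjusted p = 3.5e-05) and Ccnd1 (-0.54 ± 0.06, adjusted p = 4.52e-09) kept their calls without any single library. Those of E2f1, Mcm2, Mcm7, Pcna and Kif20a did not, Mcm2 being lost without BPSIP replicate 3 (0.0968) and in the fit of all 30 libraries (0.057), and the others without 3 to 5 different libraries each. Mki67 differed by -0.34 (-0.64 to -0.04, adjusted p = 0.0837) and Ccnb1 by 0.54 (-0.26 to 1.35).

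Set against E2 rather than control, every bisphenol stood higher in females. 2,4-BPS called 27 members, BPSIP 25 and BPS 12, each of them higher, where 16.1%, 19.7% and 13.4% of all genes rose and 29.8%, 38.4% and 25.6% were called either way. These comparisons share the 3 E2 libraries. The member medians were 1.19, 1.18 and 0.715 on the log2 scale, with 38, 38 and 33 of the 38 members above 0. Ccnb1 was 5.32-fold higher under 2,4-BPS (2.41 ± 0.46, adjusted p = 8.3e-05) and Plk1 5.11-fold (2.35 ± 0.51, adjusted p = 0.000397), while Mcm5 was 5.26-fold higher under BPSIP (adjusted p = 7.43e-12). Top2a was higher under 2,4-BPS (1.59 ± 0.20), BPSIP (1.67 ± 0.20) and BPS (1.30 ± 0.20), with adjusted p from 8.38e-09 to 3.2e-06. Leaving out single libraries gave 25 members for 2,4-BPS, 22 to 24 for BPSIP and 11 to 13 for BPS.

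Exposed males gave another picture, at lower levels. Of the 38 members 35 passed the count filter in males; Cdc6, Aurkb and Bub1 did not. Against E2 males, 2,4-BPS males had 2 members called higher and 4 lower, BPSIP males 4 and 3, and BPS males 4 and 5. Of all genes 28.5%, 26.6% and 37.7% were called in these comparisons, with 17.3% higher and 20.4% lower in the last, so the shares of members called (17.1%, 20% and 25.7%) are below the background. Between 2,4-BPS and BPS males 1 member was higher and 3 lower, between BPSIP and BPS males 2 and 3, and between 2,4-BPS and BPSIP males 3 and 3, where 27.8%, 35.7% and 31.6% of all genes were called. The 12 members called in the joint test of the 4 exposures, 34.3% of 35, also lie below the 55.1% of all genes called.

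The genes of G2 and mitosis had an order in exposed males. By group mean, E2 males were the highest of the 4 exposed male groups for 18 of the 22 genes of G2 and mitosis. Such ranks were not counted over all genes. Of the 20 tested, 4 were called lower in 2,4-BPS males than in E2 males, 3 in BPSIP males and 5 in BPS males. Only 1 was called higher, in BPSIP males. Of all genes, 15.1%, 14.4% and 20.4% were lower in these comparisons, so the calls lie near the background. Summed over the 22, the libraries had 10.5, 9.91 and 11.4 CPM in 2,4-BPS males, 15.1, 17.3 and 16.3 in BPSIP males and 13.1, 13.4 and 9.78 in BPS males, against 19.2, 20.7 and 20.3 CPM in E2 males. Of the BPSIP sums, 4.4, 4.45 and 4.89 CPM came from Ncapg alone, which had at most 0.532 CPM in any other exposed male library. That the BPSIP libraries stand clear of the 2,4-BPS and BPS male libraries in this sum therefore rests on 1 gene. E2 males are above all other exposed males in this sum, whereas E2 females are below all other females. The genes of S phase had another order, with E2 males highest for 2 of the 12 and lowest for 6. Summed over the 12, the libraries had 80.3, 82.2 and 80.6 CPM in 2,4-BPS males, 82, 73.2 and 76.5 in BPSIP males and 89, 82.3 and 84.8 in BPS males, against 73.5, 76.3 and 70.2 CPM in E2 males. These E2 libraries overlap those of BPSIP and lie below those of 2,4-BPS and BPS. The median log2 fold change over E2 males was -0.34 for the 35 members in 2,4-BPS males, -0.382 in BPSIP males and -0.126 in BPS males, against medians of all genes from -0.0204 to -0.0053.

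**Figure D3:**
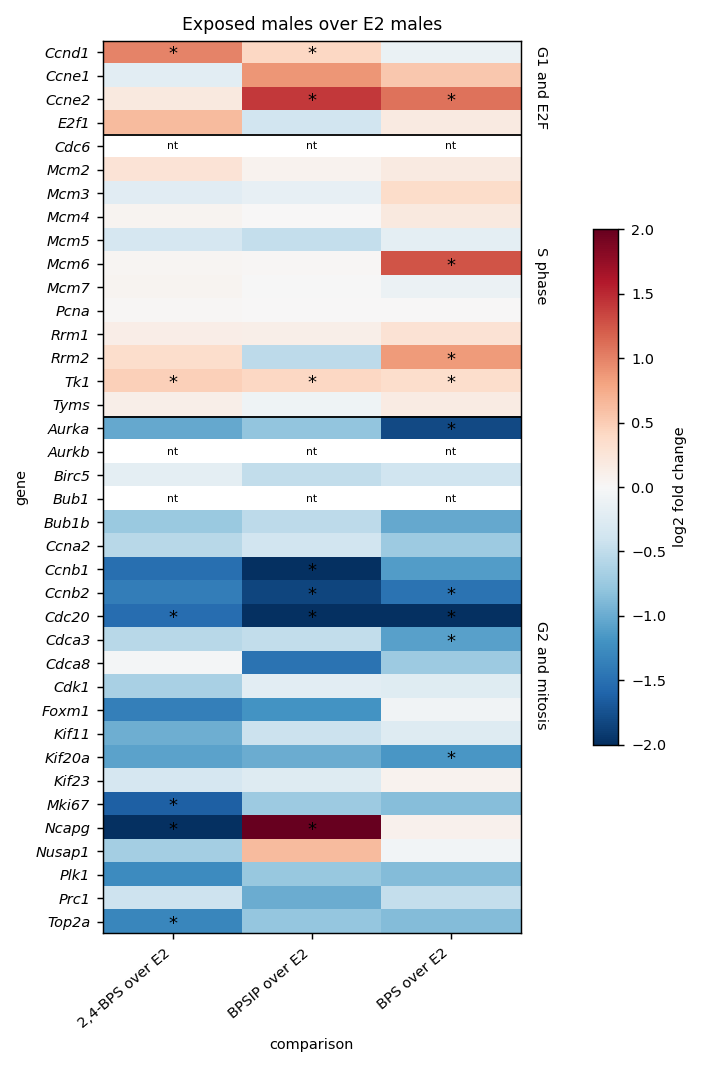
Log2 fold change of each member in 2,4-BPS, BPSIP and BPS males over E2 males, 3 libraries a group. Asterisks mark adjusted p below 0.05, nt marks the 3 members that did not pass the count filter, and colours stop at 2 in either direction. Most genes of mitosis are blue, Ncapg is dark red under BPSIP, and Mcm6 is red under BPS.

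Mki67 had 1.15, 0.839 and 0.507 CPM in 2,4-BPS males, 1.21, 1.88 and 1.53 in BPSIP males and 2.09, 1.57 and 0.65 in BPS males, against 2.98, 2.46 and 2.2 CPM in E2 males. No other exposed male library reaches an E2 library. Mki67 was lower in 2,4-BPS males (-1.63 ± 0.37, adjusted p = 0.000434) and was not called in BPSIP males (-0.73, -1.43 to -0.03) or BPS males (-0.85, -1.55 to -0.15). Cdc20 had 0.434, 0.621 and 0.269 CPM in 2,4-BPS males, 0.0657, 0.282 and 0.373 in BPSIP males and 0.387, 0.344 and 0.195 in BPS males, against 0.825, 1.37 and 1.59 CPM in E2 males. It was 5.22-fold lower in BPSIP males (-2.38 ± 0.64, adjusted p = 0.00275) and 4.11-fold lower in BPS males (-2.04 ± 0.62, adjusted p = 0.0061), both kept without any single library. In 2,4-BPS males its call (-1.52 ± 0.59, adjusted p = 0.0465) was lost without 2,4-BPS replicate 1 (0.123), 2 (0.0565) or 3 (0.198) or E2 replicate 2 (0.135) or 3 (0.191), under the replicate block (0.0575) and without the count filter (0.0551).

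Other male calls against E2 at these low counts were lost with some library left out, among them Top2a in 2,4-BPS males (-1.31 ± 0.45, adjusted p = 0.0216, and 0.14 without 2,4-BPS replicate 3 or E2 replicate 3). Ccnb1 in BPSIP males (-2.09 ± 0.72, adjusted p = 0.0243) was lost without E2 replicate 2 (0.107) or 3 (0.111) or BPSIP replicate 2 (0.145). For BPS males the count of 9 was 5 without E2 replicate 1.

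In S phase, BPS males stood apart in Mcm6, with 5.32, 4.63 and 3.57 CPM, against 2.6, 1.9 and 1.31 in 2,4-BPS males, 2, 2.1 and 1.63 in BPSIP males and 1.68, 1.93 and 1.97 in E2 males. BPS males were 2.38-fold higher than E2 males (1.25 ± 0.27, adjusted p = 0.000104), and 2,4-BPS and BPSIP males were lower than BPS males (-1.21 ± 0.27, adjusted p = 0.000248, and -1.22 ± 0.27, adjusted p = 0.00016). Mcm3 was also lower in 2,4-BPS males (-0.59 ± 0.21, adjusted p = 0.0303) and BPSIP males (-0.52 ± 0.21, adjusted p = 0.0484) than in BPS males, and these calls were lost without BPS replicate 1 (0.114 and 0.158) or 3 (0.0618 and 0.0871), among other libraries. Mcm2, Mcm4, Mcm5 and Mcm7 were called in no male pair.

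Ccnd1 in males was low and tightly grouped, with 20.8, 19.1 and 20.5 CPM in 2,4-BPS males, 13.5, 13.6 and 13.4 in BPSIP males and 9.37, 9.46 and 9.23 in BPS males, against 10.2, 10.5 and 9.48 CPM in E2 males. 2,4-BPS males were highest and overlap no other group: they were 2.17-fold above BPS males (1.12 ± 0.11, adjusted p = 1.87e-12), 1.48-fold above BPSIP males (0.57 ± 0.11, adjusted p = 2.34e-05) and 1.99-fold above E2 males (0.99 ± 0.11, adjusted p = 7.64e-11). BPS and E2 males differed by -0.13 (-0.35 to 0.10). In females the order was another, with BPSIP highest.

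Ncapg stood out in a single group. It had 4.4, 4.45 and 4.89 CPM in BPSIP males, against 0.031, 0.0311 and 0.149 in 2,4-BPS males, 0.258, 0.532 and 0.195 in BPS males and 0.222, 0.281 and 0.414 CPM in E2 males. All 3 BPSIP males lie more than 8-fold above every other exposed male and above every female library, of which the highest had 0.903 CPM. Ncapg was 14.7-fold higher in BPSIP than in E2 males (3.88 ± 0.44, adjusted p = 8.01e-11) and 13.9-fold higher than in BPS males (3.80 ± 0.44, adjusted p = 1.17e-10). It was 61.1-fold lower in 2,4-BPS than in BPSIP males (-5.93 ± 0.54, adjusted p = 2.37e-14).

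Some other condensin genes, Ncapd2, Ncaph, Ncapg2, Smc2 and Smc4, were looked up after Ncapg was seen. Ncapd2 averaged 2.86 ± 0.373 CPM in BPSIP males and 3.05 ± 0.186 CPM in E2 males (SD, n = 3 each), a difference of -0.10 (-0.63 to 0.42), and was higher in BPSIP than in BPS males (0.99 ± 0.28, adjusted p = 0.00398). Against E2 males, Ncapg2 differed by -0.08 (-0.87 to 0.71), Ncaph by -0.80 (-2.01 to 0.40), Smc2 by -0.56 (-1.15 to 0.03) and Smc4 by 0.02 (-0.28 to 0.32), none of them called. Exons of Ncapg and Lcorl overlap on opposite strands, and Lcorl averaged 12.8 CPM in BPSIP males and 12.6 CPM in E2 males, a difference of 0.02 (-0.22 to 0.25).

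Between the sexes under the same exposure, females had the higher levels for most members, except under E2. Under 2,4-BPS 32 members were called higher in females than in males, where 24.8% of all 14083 genes were higher and 47.4% were called. Under BPSIP 32 were higher and 1 lower, where 26% of all genes were higher, 25.5% lower and 51.5% were called. Under BPS 19 were higher, where 20.5% of all genes were higher and 39.5% were called. Under E2 4 were higher and 1 lower, where 16.3% of all genes were higher, 18.4% lower and 34.7% were called.

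The member median of females over males was 1.52 under 2,4-BPS, 1.55 under BPSIP, 0.992 under BPS and 0.0619 under E2 on the log2 scale, against at most 0.0254 for all genes. The BPS count was 11 without BPS male replicate 3. The E2 count of 5 was 2 without E2 female replicate 3 and 3 without E2 male replicate 1 or 3, and in the fit of the 2 groups alone it was 2.

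**Figure D4:**
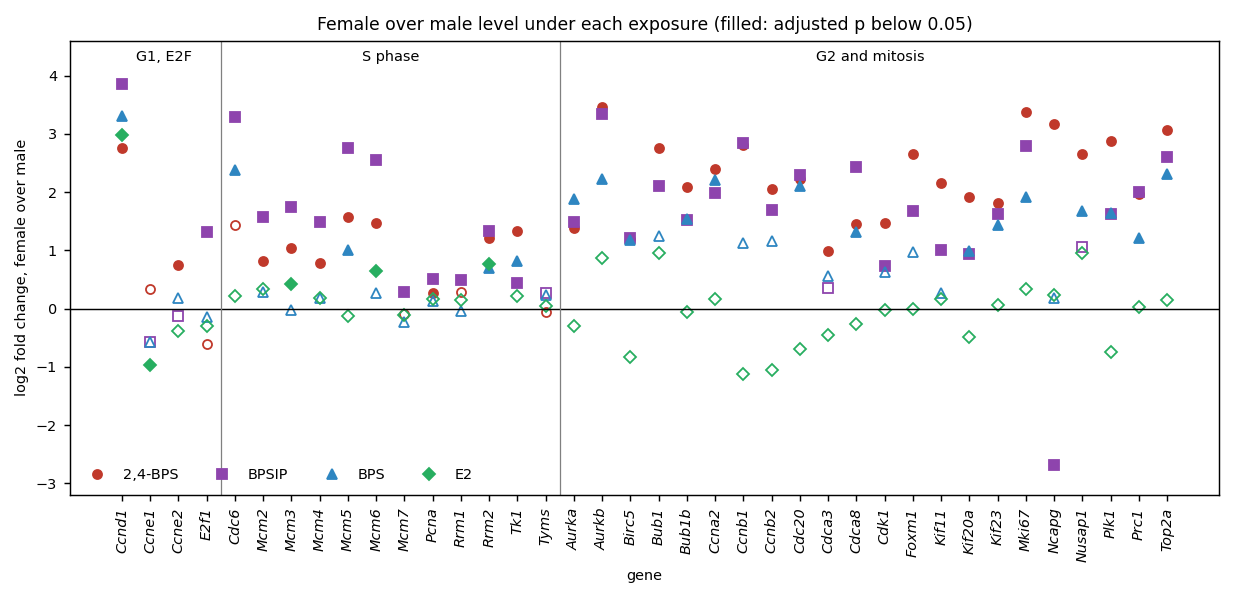
Log2 fold change of females over males for each member under each of the 4 exposures, with members along the axis by stage and filled symbols for adjusted p below 0.05. For genes of G2 and mitosis the symbols of 2,4-BPS, BPSIP and BPS lie mostly above 0, those of E2 scatter about 0 and are all open, and Ncapg under BPSIP is the lowest point.

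For genes of G2 and mitosis the difference between exposures is plain. All 22 were called higher in females under 2,4-BPS, with a median of 2.19, whereas under E2 the median was -0.02 and the 5 called members belonged to G1 and S phase. Mki67 had 9.86, 7.98 and 7.74 CPM in 2,4-BPS females, against 1.15, 0.839 and 0.507 CPM in 2,4-BPS males, a 10.4-fold difference (3.37 ± 0.26, adjusted p = 1.47e-16). Under E2 it had 4.11, 2.73 and 2.96 CPM in females, against 2.98, 2.46 and 2.2 CPM in males, which overlap (0.34, -0.12 to 0.80). Top2a was 8.37-fold higher in females under 2,4-BPS (3.07 ± 0.30, adjusted p = 5.45e-13), 6.06-fold under BPSIP (2.60 ± 0.29) and 4.98-fold under BPS (2.32 ± 0.29), and under E2 it differed by 0.15 (-0.40 to 0.70).

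Whether the sex difference depended on the exposure was tested directly, in a joint test of sex by exposure over the 4 exposures and both sexes. It called 27 of the 38 members, 71.1%, where 56.7% of all genes were called. A comparison added after the data were seen set the female over male difference of each bisphenol against that of E2. It called 20 members for 2,4-BPS, each of them larger, where 16.9% of all genes were larger and 30.1% were called. For BPSIP it called 22 larger and 1 smaller (19.1% of all genes larger, 17% smaller, 36.1% called), and for BPS 13, each larger (15.6% of all genes larger, 27.2% called). Mki67 (3.03 ± 0.35, adjusted p = 4.29e-10) and Top2a (2.91 ± 0.41, adjusted p = 7.21e-08) were among those for 2,4-BPS, and Mcm5 (2.87 ± 0.38, adjusted p = 7.87e-09) was among those for BPSIP. The count for BPS was 8 without E2 male replicate 2.

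Ccnd1 was higher in females under E2 as well. E2 females had 75.4, 75.9 and 89.8 CPM, against 10.2, 10.5 and 9.48 CPM in E2 males, a 7.89-fold difference (2.98 ± 0.07, adjusted p = 7.21e-41). Under 2,4-BPS the difference was 6.75-fold (2.75 ± 0.07), under BPSIP 14.5-fold (3.86 ± 0.07) and under BPS 9.83-fold (3.30 ± 0.07). Rrm2 was also higher in E2 females than in E2 males (0.76 ± 0.23, adjusted p = 0.00688), and both calls held without any single library.

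Ncapg was the member called lower in females than in males under BPSIP, where BPSIP females had 0.903, 0.751 and 0.461 CPM, against 4.4, 4.45 and 4.89 CPM in BPSIP males. The groups do not overlap.

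The libraries labelled male control stood above all 4 exposed male groups for 31 of the 38 members by group mean, and above these and control females for 18. The share of all genes with these ranks was not counted. Mki67 averaged 6.37 ± 1.08 CPM in them, against 4.22 ± 0.437 CPM in control females (SD, n = 3 each), and the 22 genes of G2 and mitosis summed to 35.9, 32.5 and 41.7 CPM. With the mixed markers given above, these values were not tested.

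Further genes of the cycle, and markers of other cells, were counted on lists outside the 38. Against control females, 10.4% of all genes rose and 10.6% fell under E2, 10.9% and 8.42% under 2,4-BPS, 19.4% and 19.2% under BPSIP, and 9.32% and 7.5% under BPS, and the counts of each list against control are to be read beside these shares. Of 59 tested genes of G2 and mitosis, 1 rose and 10 fell under E2 against control females, 3 rose under 2,4-BPS, 4 rose and 1 fell under BPSIP, and 2 rose and 1 fell under BPS. Their medians were -0.41, 0.33, 0.21 and -0.03. Wee1, the kinase that holds CDK1 back, had 3.65, 3.07 and 3.21 CPM in E2 females, against 16.6, 16 and 15.1 CPM in control females, and it fell (-2.26 ± 0.12, adjusted p = 5.97e-17). In E2 males it was also the lowest, at 4.03, 2.4 and 1.91 CPM, and it was higher than in E2 males in 2,4-BPS (1.72 ± 0.21), BPSIP (2.33 ± 0.21) and BPS males (2.17 ± 0.21).

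Of 47 further genes of S phase, 1 rose and 8 fell under E2, 1 rose and 5 fell under 2,4-BPS, 7 rose and 4 fell under BPSIP, and 7 fell under BPS. Gmnn, geminin, which blocks a second round of replication, fell under E2 (-1.03 ± 0.20, adjusted p = 0.000184). Between the sexes, 24.8% of all genes were higher in females and 22.5% lower under 2,4-BPS, 26% and 25.5% under BPSIP, 20.5% and 19% under BPS, and 16.3% and 18.4% under E2. Of 58 further genes of G2 and mitosis, 41 were higher in females and 3 lower under 2,4-BPS, 30 and 3 under BPSIP, 20 and 3 under BPS, and 4 and 2 under E2, with medians of 1.61, 1.59, 1.10 and 0.01.

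Of the 7 inhibitors of cyclin-dependent kinases, 1 rose and 1 fell under 2,4-BPS, 1 rose and 2 fell under BPSIP, 1 rose and 2 fell under BPS, and 1 rose and 1 fell under E2, with medians of -0.11, -0.66, -0.46 and -0.10. The gene that rose was Cdkn1a, which encodes p21, in each case. It had 15.1, 12.7 and 12.3 CPM in 2,4-BPS females, 5.46, 5.44 and 5.92 in BPSIP females, 30.9, 27.4 and 26.8 in BPS females and 42.4, 43.3 and 37.4 in E2 females, against 2.63, 2.88 and 3.76 CPM in control females. Cdkn1a rose 4.33-fold under 2,4-BPS, 1.81-fold under BPSIP, 9.22-fold under BPS and 13.2-fold under E2, with adjusted p of 1.52e-06 or less. In males it had 15.5, 16.9 and 15.1 CPM under 2,4-BPS, 11.3, 8.93 and 7.09 under BPSIP and 13, 14.4 and 10.2 under BPS, against 24.8, 26.8 and 26.7 CPM under E2, so that E2 males had the highest Cdkn1a together with the highest sums of G2 and mitosis genes.

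Markers of other cell types moved with several of these results. The 14 Kupffer cell and macrophage genes summed to 2112 to 2256 CPM in 2,4-BPS females, 2523 to 2822 in BPSIP females, 1448 to 1559 in BPS females and 1348 to 1414 in E2 females, against 1549 to 1608 CPM in control females. Of the 14, 12 rose under 2,4-BPS, 12 rose under BPSIP, 1 rose and 5 fell under BPS, and 1 rose and 9 fell under E2. In exposed males they summed to 791 to 815 CPM under 2,4-BPS, 866 to 935 under BPSIP and 877 to 903 under BPS, against 976 to 1045 CPM under E2. Compared with E2 males, 9 of the 14 were lower in 2,4-BPS males, 4 in BPSIP males and 7 in BPS males, and 1 was higher in each. Of all genes, 15.1%, 14.4% and 20.4% were lower. Of the 14 genes, 14 were higher in females than in males under 2,4-BPS, 14 under BPSIP, 13 under BPS and 12 under E2. The 13 T and NK cell genes summed to 42.9 to 49.1 CPM in BPSIP females and to 22.2 to 28.3 CPM in all other female groups, and 7 of the 13 rose under BPSIP. No gene of either list was at 0 in any group.

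The 12 neutrophil genes summed to 27.5 to 34.3 CPM in 2,4-BPS females, 56.7 to 74.8 in BPSIP females, 16.6 to 19.9 in BPS females and 26.1 to 30.6 in E2 females, against 35.7 to 45.4 CPM in control females. They were 1 higher and 5 lower of 11 tested under 2,4-BPS, 6 higher under BPSIP, 10 lower under BPS and 6 lower under E2. In males they summed to 14.2 to 20.5 CPM under 2,4-BPS, 4.04 to 7.81 under BPSIP and 16.8 to 20.3 under BPS, against 48 to 55.3 CPM under E2, where the genes of mitosis were highest too. Ly6g, a defining neutrophil gene, was at 0 in 2,4-BPS and in BPSIP males. Of 10 tested neutrophil genes, 9 in 2,4-BPS males, 10 in BPSIP males and 8 in BPS males were lower than in E2 males. Of all genes, 15.1%, 14.4% and 20.4% were lower in these comparisons. The 8 B and plasma cell genes summed to 26.9 to 29.8 CPM in BPSIP females and to at most 18 CPM in any other library. Against control females, of 7 tested, 1 rose under 2,4-BPS, 1 rose under BPSIP, 7 fell under BPS and 1 fell under E2. Their medians were 0.14, -0.08, -1.48 and -0.26. The 12 erythroid genes summed to 344 to 662 CPM in the female and exposed male libraries. Of these 12, 4 rose under 2,4-BPS, 5 rose and 1 fell under BPSIP, and 4 rose under BPS. Under E2, 7 rose and 1 fell. The erythroid medians were 0.46, 1.48, 0.51 and 0.94. Tnfrsf17, a plasma cell gene, was at 0 in BPS females, BPS males and E2 males, and Rhag, an erythroid gene, in 2,4-BPS, BPSIP and E2 males and in control females.

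The 10 endothelial genes summed to 565 to 590 CPM in 2,4-BPS females, 407 to 425 in BPSIP females, 513 to 532 in BPS females and 453 to 498 in E2 females, against 517 to 525 CPM in control females. Of the 10, 3 rose under 2,4-BPS, 2 rose and 6 fell under BPSIP, 1 rose under BPS, and 1 rose and 4 fell under E2. The 10 genes of stellate cells summed to 452 to 482 CPM in 2,4-BPS females, 431 to 442 in BPSIP females, 415 to 428 in BPS females and 427 to 444 in E2 females, against 415 to 438 CPM in control females. Of these 10, 3 rose under 2,4-BPS, 5 rose and 3 fell under BPSIP, 2 rose and 1 fell under BPS, and 1 fell under E2. Between the sexes, 9 of the 10 endothelial and 8 of the 10 stellate genes were higher in females under 2,4-BPS, and under BPSIP 2 endothelial genes were higher and 6 lower and 6 stellate genes higher and 3 lower. Of the 8 genes of bile duct cells, 1 fell under BPSIP and 1 under E2. The part of these cells in the levels of the cell cycle genes was not tested.

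**Figure D5:**
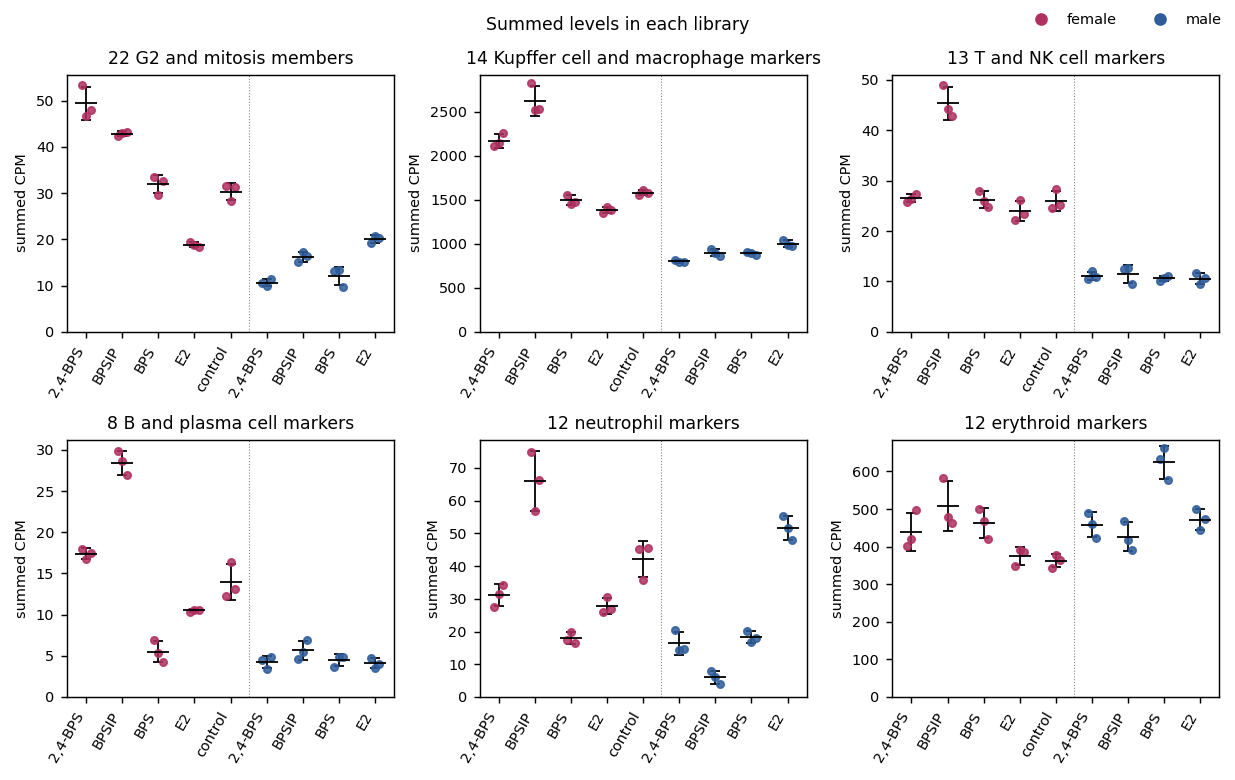
Summed CPM in each library of the 22 G2 and mitosis members and of 5 lists of blood and immune cell markers, with the mean and SD of 3 libraries per group as bars. Kupffer cell markers are high in 2,4-BPS and BPSIP females, as the G2 and mitosis members are, and neutrophil markers are high in BPSIP females and E2 males.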

How the data were processed

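Whole-liver RNA of 30 offspring was sequenced. Per the submitters' processing notes, HISAT2, HTSeq, R 3.2.0 and DESeq2 were used. Those notes name no build, annotation or strand setting. The authors deposited raw counts per gene, whole numbers used here for every test. The deposited FPKM values equal counts divided by the library total and gene length, within a relative deviation of 3.46e-06, and were used only to compare levels between genes.

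Counts were filtered (filterByExpr), scaled (TMM) and tested with edgeR 4.0.16 (robust quasi-likelihood, R 4.3.3) with Benjamini-Hochberg adjustment over all genes of a fit: 13874 genes in 15 female libraries, 13289 in 12 exposed male libraries and 14083 in these 27. CPM divide counts by the TMM-scaled total of kept genes. Over raw library totals, before this scaling, 1 count was worth at most 0.0337 CPM. Replicates differed by more than counting noise (chi-square per gene 5.445 to 22.415 over 30 pairs), so no library was counted as a copy. This does not show that replicates were separate animals. Only the labels say so, and every p-value rests on them. The common biological coefficient of variation, the fitted spread between replicates, was 0.0915 in females, 0.0874 in exposed males and 0.0901 in the 27 libraries. Every library labelled male control carried the mixed markers, with Y-linked sums of 84.7 to 95.3 CPM. Whether libraries of a group shared RNA was not tested. Named with values were the called members of a comparison, smallest p first and at most 12, a fixed panel of 12 members, and, from other lists, the 3 called genes with smallest p and Cdkn1a; genes overlapping members and condensin genes were looked up after the values were seen. The members and lists were chosen with earlier results of these data known. Replicate numbers were checked for pairing and share only a number. The test was also run on counts simulated from the fitted spread between replicates. Such a run takes that spread as given, so it cannot show whether replicates were separate animals. Alternatives were RLE scaling, no filter, DESeq2 1.42.0, a replicate block, only the 2 groups compared, all 30 libraries, and leaving out each library in turn.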

Additional observations from a re-analysis of the deposited data

Results flagged for a closer look

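For 27 members the joint test of sex by exposure was called, meaning that the female over male difference was not the same under the 4 exposures. Each is given with the bisphenol whose female over male difference lay farthest from that of E2, as the log2 difference of differences ± SE. Each such difference was tested, in the fit of 27 libraries with edgeR's quasi-likelihood test, in a comparison added after the data were seen, and E2 libraries are shared by all.

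With 2,4-BPS minus E2, the values were 3.03 ± 0.35 for Mki67 (adjusted p = 4.29e-10), 2.91 ± 0.41 for Top2a (7.21e-08), 1.12 ± 0.14 for Tk1 (1.07e-09) and 3.62 ± 0.87 for Plk1 (0.000765). They were 3.11 ± 0.70 for Ccnb2, 2.4 ± 0.53 for Kif20a, 2.24 ± 0.61 for Ccna2, 1.99 ± 0.54 for Kif11, 1.50 ± 0.44 for Cdk1, 2.67 ± 0.80 for Foxm1, 2.14 ± 0.68 for Bub1b and 1.74 ± 0.58 for Kif23, with adjusted p from 0.00027 to 0.0178. Each of these genes of mitosis, and Tk1, thus showed a larger female excess under 2,4-BPS than under E2.

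With BPSIP minus E2, the values were 2.87 ± 0.38 for Mcm5 (adjusted p = 7.87e-09), 0.88 ± 0.10 for Ccnd1 (3.92e-11), 1.91 ± 0.34 for Mcm6 (5.29e-06), 1.31 ± 0.24 for Mcm3 (1.2e-05), 1.30 ± 0.29 for Mcm4 (0.000188) and 1.24 ± 0.36 for Mcm2 (0.00555). They were 3.97 ± 0.80 for Ccnb1, 2.99 ± 0.64 for Cdc20, 2.69 ± 0.76 for Cdca8, 1.63 ± 0.47 for E2f1, 1.97 ± 0.61 for Prc1, 2.04 ± 0.67 for Birc5 and 0.35 ± 0.13 for Pcna, with adjusted p from 4.75e-05 to 0.0306. Mcm7 differed by 0.39 ± 0.17 and missed the threshold (0.0658). Ncapg ran the other way, at -2.94 ± 0.69 (0.000491).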

How the results depend on the processing

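Fold changes were followed over the alternatives only for members called in the main fit, outside the joint tests. The leave-one-out fits of a call counted as 1 value, that with the largest adjusted p. Of these values, 2027 kept their direction and their call, 146 kept their direction but lost the call, and none reversed. Of 319 calls, 211 were kept in every alternative. Leaving out single libraries gave, for members called against control in females, 5 to 8 under 2,4-BPS, 12 to 15 under BPSIP, 1 to 3 under BPS and 9 to 14 under E2. In female pairs the ranges were 4 to 9 (2,4-BPS over BPS), 12 to 14 (BPSIP over BPS), 9 to 10 (2,4-BPS over BPSIP), 25 in each case (2,4-BPS over E2), 22 to 24 (BPSIP over E2) and 11 to 13 (BPS over E2). In male pairs, in the same order, they were 3 to 5, 4 to 5, 2 to 6, 4 to 6, 6 to 7 and 5 to 7, and 9 to 12 in the joint test. For females over males they were 26 to 31 (2,4-BPS), 27 to 30 (BPSIP), 11 to 16 (BPS) and 2 to 5 (E2), for the differences from E2 18 to 23, 18 to 24 and 8 to 14, and for the joint test of sex by exposure 23 to 28. Other alternatives changed 2 counts by more than 1.5 times, and further counts by less: BPS against control in females gave 1 in the fit of all 30 libraries and 4 with DESeq2, and females over males under E2 gave 2 with the 2 groups alone. The cause was not tested.

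The replicate numbers gave no sign of pairing: no pair of groups had every correlation above 0.1 (45 pairs, -0.158 to 0.249), and 3 of 30 libraries correlated best with their own number. With the replicate number as a block the counts were 9, 14, 2 and 13 against control in females, 10, 14, 12, 27, 25 and 13 in female pairs, 4, 5, 7, 5, 7 and 8 in male pairs, 31, 33, 18 and 4 for females over males, 21, 22 and 13 for the differences from E2, and 10 and 27 in the joint tests. Most genes of mitosis lie near 1 CPM, which limits them: 38.2% of all member values are below 1 CPM.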

Other observations

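Mcm10, a replication factor outside the 38 genes, ran the other way between the sexes. It averaged 28.5 ± 3.17 CPM in 2,4-BPS females, 18.5 ± 1.19 in BPSIP females, 42.2 ± 0.528 in BPS females and 27.5 ± 1.3 in E2 females, against 125 ± 1.02, 133 ± 5.72, 110 ± 5.22 and 75.6 ± 1.22 CPM in males of the same exposures (SD, n = 3 each). Every exposed female library was below every exposed male library.

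Myc, which drives growth and cell cycle entry, was highest in E2 females among females and in 2,4-BPS males among exposed males. It had 22.8, 24.1 and 23.3 CPM in E2 females, against 5.71, 6.18 and 5.2 CPM in control females, and rose (2.03 ± 0.12, adjusted p = 9.52e-16 with edgeR). It had 33.2, 38.5 and 36.1 CPM in 2,4-BPS males, against 10.9, 12.8 and 10.3 CPM in E2 males. E2 females thus had the highest Myc and Cdkn1a and the lowest sum of G2 and mitosis genes among female groups.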
